A study of Homo sapiens with 3 samples.

Results

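Mitochondrially encoded transcripts were described gene by gene in single-cell RNA-seq libraries of 2 prostate cancer cell lines. The members are the genes whose symbol starts with MT-. Of the 37 genes that the annotation places on the mitochondrial genome, 30 had a row in the count files, among 33423 genes in the 3 files together (27348 for VCaP parental, 28928 for VCaP–ENZ48 and 24350 for LNCaP–ENZ168). They comprised 13 protein genes, 2 rRNA genes and 15 of the 22 tRNA genes, and each had UMIs in every library. The other 7, all tRNA genes, were not analysed here.

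The libraries were made by Drop-seq, in which a droplet joins a cell with a bead whose oligo-dT primers capture RNA at stretches of A and give each captured molecule a unique molecular identifier (UMI). VCaP parental held VCaP cells, grown in DMEM with 10% FBS, after 48 h in the vehicle, 0.1% DMSO. VCaP–ENZ48 held the same line after 48 h in 10 µM enzalutamide (ENZ), a drug given to patients with this cancer. LNCaP–ENZ168 held LNCaP cells, grown in RPMI with 10% FBS, after 168 h in 10 µM ENZ. All are established lines labelled as sensitive to ENZ, and no vehicle library of LNCaP was analysed here. With a single library for each group there were no replicates, and no statistical test was run, since the cells of 1 library share their source. The 95% intervals given cover only the error of counting.

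Of 1000 barcodes in each file, 997, 947 and 944 were kept in VCaP parental, VCaP–ENZ48 and LNCaP–ENZ168, the order used throughout. They carried 19515202, 14301287 and 6313283 UMIs, with medians of 17817, 11224 and 5389 UMIs per cell. Depth therefore moved with the groups. Values of cells alike in depth are given only for the summed shares, the rRNAs and MT-CO1 per MT-CO3. The epithelial markers EPCAM, KRT8, KRT18 and HOXB13 were detected in every library, at 98.4 CPM (counts per 1000000 UMIs of the library) or more. ERG, which VCaP expresses from a fusion gene, was at 105 and 57.1 CPM in the VCaP libraries and had 0 UMIs in LNCaP–ENZ168, which allows up to 0.475 CPM. Of 7 markers of blood, endothelial and stromal cells, 5 had a row, and their summed level was 21.7, 26.4 and 1.90 CPM. Almost all of it in the VCaP libraries was LUM (409 of 423 and 361 of 378 UMIs), while PTPRC and PECAM1 had 0 to 2 UMIs a library. A barcode can hold free RNA as well as that of its cell, which was not measured.

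The mitochondrial genome is a small circle copied into long RNAs from each of its strands. These precursors carry the rRNAs of the mitochondrial ribosome and the messages of core subunits of the respiratory chain and ATP synthase, mostly separated by tRNAs that are cut out, after which most messages and both rRNAs receive short A tails. All enzymes that copy, transcribe and cut this genome, and most subunits of the same complexes, are encoded in the nucleus. Prostate epithelium is known for secreting citrate instead of oxidising it, and prostate cancer cells oxidise more of it.

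Several sequences of members named below are shown, and their part in the results was not tested. MT-RNR2, the 16S rRNA (GRCh38 chrM:1671-3229, plus strand, 1559 bases), was the member that differed most in share between LNCaP–ENZ168 and the VCaP libraries. It holds 4 runs of at least 6 A, more than any other member. In all, 9 of the 37 annotated genes hold such a run on their own strand, with 15 runs among them. In the windows below the run is in capitals, and the number is the position of its first base in the gene. The windows lie at chrM:2119-2146, chrM:2140-2167, chrM:2216-2243 and chrM:2446-2473. Where captured MT-RNR2 molecules were primed was not tested.

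MT-RNR2 position 460: tggacactaggAAAAAAccttgtagaga
MT-RNR2 position 481: gtagagagagtAAAAAAtttaacaccca
MT-RNR2 position 557: acccactacctAAAAAAtcccaaacata
MT-RNR2 position 787: aaggaaaggttAAAAAAAgtaaaaggaa

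The next pair lies side by side at the end of the gene-bearing region, on opposite strands, and had the most unlike tRNA counts. MT-TT, the threonine tRNA, is at chrM:15888-15953 on the plus strand, and MT-TP, the proline tRNA, is at chrM:15956-16023 on the minus strand. Each is given 5′ to 3′ on its own strand.

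MT-TT: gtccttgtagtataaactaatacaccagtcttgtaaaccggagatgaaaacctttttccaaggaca
MT-TP: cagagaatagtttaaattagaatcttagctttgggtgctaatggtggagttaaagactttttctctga

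The last stretch marks bases that belong to 2 genes at once, so that a read inside them has no single origin. MT-ATP8 (chrM:8366-8572) and MT-ATP6 (chrM:8527-9207) share 46 bases, given in capitals. MT-ND4L and MT-ND4 share 7 in the same way (chrM:10760-10766).

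MT-ATP8 and MT-ATP6: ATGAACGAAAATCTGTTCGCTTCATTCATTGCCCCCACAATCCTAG

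The members together made up 6.24% of UMIs in VCaP parental (6.22 to 6.25%), 7.49% in VCaP–ENZ48 (7.48 to 7.51%) and 8.94% in LNCaP–ENZ168 (8.91 to 8.96%). The filter left out cells above 25% and so acts on this value. Without that limit the shares were 6.26%, 7.89% and 9.71%. The summed level hid a change of order. The 13 protein genes alone made up 5.22% (5.21 to 5.23%), 5.90% (5.88 to 5.91%) and 3.27% (3.26 to 3.28%) of UMIs, so that LNCaP–ENZ168 had the highest share of all members and the lowest share of protein messages. The first of these orders was not seen at like depth: in the shallowest of 4 bins of cells by UMIs per cell, with medians of 3785 and 3707 UMIs, the members made up 10.3% in VCaP–ENZ48 and 10.1% in LNCaP–ENZ168, and the protein genes 7.33% and 3.50%. Between the VCaP libraries the protein genes summed to a log2 ratio of 0.17 on the CPM scale, which TMM scaling turned to -0.12. The order of the protein shares was the same without the limit, at 5.24%, 6.21% and 3.50%. MT-RNR2 alone made up 0.938%, 1.51% and 5.34% of UMIs.

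**Figure D1:**
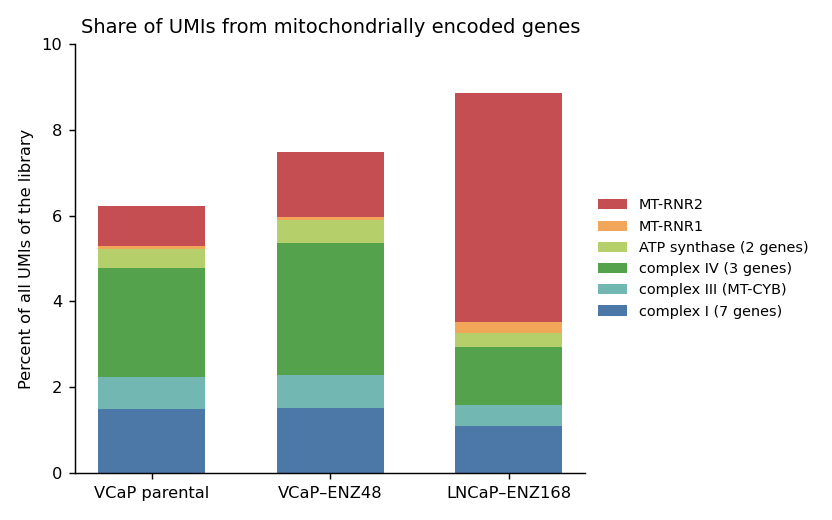
Stacked bars give the percent of all UMIs of each library from mitochondrially encoded genes, split into the subunits of each complex and both rRNAs, with tRNAs, under 0.1%, left out. In LNCaP–ENZ168 the MT-RNR2 segment of 5.34% is larger than the segments of all 13 protein genes together, at 3.27%, whereas in VCaP parental it is 0.938% against 5.22%.

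Relative to each other rather than to the library, the members differed as follows. The absolute differences in each member's percent of mitochondrial UMIs, summed and divided by 2, measure how much of the make-up differed. This measure came to 10.8 percentage points between VCaP–ENZ48 and VCaP parental (10.7 to 11.0) and 42.2 points between LNCaP–ENZ168 and VCaP–ENZ48 (42.1 to 42.4). Without the 2 rRNA genes these were 9.80 and 13.2 points. It does not depend on how libraries are scaled.

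The rRNAs set LNCaP–ENZ168 apart from both VCaP libraries. MT-RNR2 had 183137, 215425 and 337205 UMIs, or 15.1%, 20.1% and 59.8% of mitochondrial UMIs. MT-RNR1, the 12S rRNA of the small ribosomal subunit (chrM:648-1601), had 10968, 9929 and 15951 UMIs, or 0.901%, 0.926% and 2.83%. Both were higher in LNCaP–ENZ168 than in either VCaP library. MT-RNR2 was at 9384, 15063 and 53412 CPM, which gave a log2 ratio of CPM + 1 of 0.68 (0.67 to 0.69) for VCaP–ENZ48 over VCaP parental and 1.83 (1.82 to 1.83) for LNCaP–ENZ168 over VCaP–ENZ48. For MT-RNR1 the ratios were 0.30 (0.27 to 0.34) and 1.86 (1.83 to 1.90). Both rRNAs kept a positive ratio in both comparisons under every alternative, the lowest for MT-RNR1 being 0.015 in VCaP under scaling by TMM factors, which are computed from genes that differ least between libraries. The number of MT-RNR2 UMIs per MT-RNR1 UMI was 16.7 (16.4 to 17.0), 21.7 (21.3 to 22.1) and 21.1 (20.8 to 21.5). The values of VCaP–ENZ48 and LNCaP–ENZ168 were close over whole libraries, but not at like depth. In the shallowest of 4 bins by UMIs per cell, MT-RNR2 and MT-RNR1 made up 27.8% and 0.853% of mitochondrial UMIs in VCaP–ENZ48. In that bin of LNCaP–ENZ168 they made up 62.0% and 2.52%.

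Complex IV, cytochrome c oxidase, has its 3 catalytic core subunits encoded here, and they behaved unlike each other in VCaP. MT-CO1 (chrM:5904-7445) had 138012, 179425 and 33841 UMIs, or 11.3%, 16.7% and 5.999% of mitochondrial UMIs. MT-CO3 (chrM:9207-9990) had 233615, 150694 and 31747 UMIs, or 19.2%, 14.1% and 5.63%. MT-CO2 (chrM:7586-8269) had 124639, 110395 and 20504 UMIs, or 10.2%, 10.3% and 3.63%. MT-CO1 was thus higher, MT-CO3 lower and MT-CO2 level as a share of mitochondrial UMIs in VCaP–ENZ48 than in VCaP parental, while all 3 had their lowest share in LNCaP–ENZ168. The UMIs of MT-CO1 per UMI of MT-CO3 were 0.591 (0.587 to 0.595), 1.19 (1.18 to 1.20) and 1.07 (1.05 to 1.08). On the CPM scale the log2 ratios of VCaP–ENZ48 over VCaP parental were 0.83 (0.82 to 0.84) for MT-CO1, 0.27 (0.26 to 0.29) for MT-CO2 and -0.18 (-0.19 to -0.17) for MT-CO3. TMM scaling took MT-CO1 to 0.54, MT-CO2 to -0.02 and MT-CO3 to -0.47, and so left the gap between MT-CO1 and MT-CO3 in place.

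MT-CYB, the cytochrome b of complex III and its only subunit encoded here (chrM:14747-15887), had 144824, 108155 and 29915 UMIs. These were 11.9%, 10.1% and 5.30% of mitochondrial UMIs. It was at 7421, 7563 and 4738 CPM. The log2 ratio in VCaP was 0.03 (0.02 to 0.04), and -0.26 under TMM scaling, while that of LNCaP–ENZ168 over VCaP–ENZ48 was -0.67 (-0.69 to -0.66), and -1.21 under TMM scaling.

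Complex I, the NADH dehydrogenase, has 7 subunits encoded here, and the 2 smallest genes among them differed most. MT-ND3 (chrM:10059-10404) had 48331, 29568 and 3934 UMIs, or 3.97%, 2.76% and 0.697% of mitochondrial UMIs. MT-ND4L (chrM:10470-10766) had 25822, 14177 and 3032 UMIs, or 2.12%, 1.32% and 0.537%. Both shares were highest in VCaP parental and lowest in LNCaP–ENZ168. MT-ND4L overlaps MT-ND4 in the bases given above, and had 0.271 (0.267 to 0.274), 0.199 (0.195 to 0.202) and 0.126 (0.122 to 0.131) UMIs per MT-ND4 UMI. Where reads fell along these overlapping genes was not tested, so this ratio need not reflect separate messages. MT-ND3 had 0.207, 0.196 and 0.124 UMIs per UMI of MT-CO3, the gene before it.

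The longer complex I genes varied less. MT-ND4 was at 7.84%, 6.66% and 4.25% of mitochondrial UMIs, MT-ND1 at 4.001%, 4.202% and 2.60%, MT-ND2 at 2.90%, 2.50% and 1.62% and MT-ND5 at 2.61%, 2.48% and 2.33%. MT-ND5 (chrM:12337-14148), the longest member, was the most even of the protein genes in share. MT-ND6, the only protein gene read from the other strand (chrM:14149-14673), had 5958, 4516 and 1882 UMIs. It was the most even on the CPM scale, at 305.3, 316 and 298 CPM, with log2 ratios of 0.05 and -0.08, which TMM scaling took to -0.24 and -0.61.

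ATP synthase has 2 subunits encoded here in overlapping genes. MT-ATP6 had 71169, 62984 and 15798 UMIs, or 5.85%, 5.88% and 2.80% of mitochondrial UMIs. MT-ATP8 had 15644, 13369 and 4865 UMIs, or 1.29%, 1.25% and 0.862%. As shares both were close between the VCaP libraries, with 0.220 (0.216 to 0.224) and 0.212 (0.208 to 0.216) UMIs of MT-ATP8 per UMI of MT-ATP6. The ratio in LNCaP–ENZ168 was 0.308 (0.298 to 0.318). Reads in the shared bases shown above make the split between these genes uncertain.

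Compared per length, the order of the members also differed between LNCaP–ENZ168 and the VCaP libraries. MT-CO3 was the highest member in both VCaP libraries, at 15269 and 13440 CPM per kb of gene, followed by MT-CO2 at 9337 and 11285. In LNCaP–ENZ168 MT-RNR2 led at 34260 CPM per kb, with MT-CO3 next at 6414. Among protein and rRNA genes MT-ND6 was the lowest in each library, at 582, 601 and 568 CPM per kb. MT-RNR1 was next to it in both VCaP libraries, at 589 and 728, against 2648 in LNCaP–ENZ168.

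**Figure D2:**
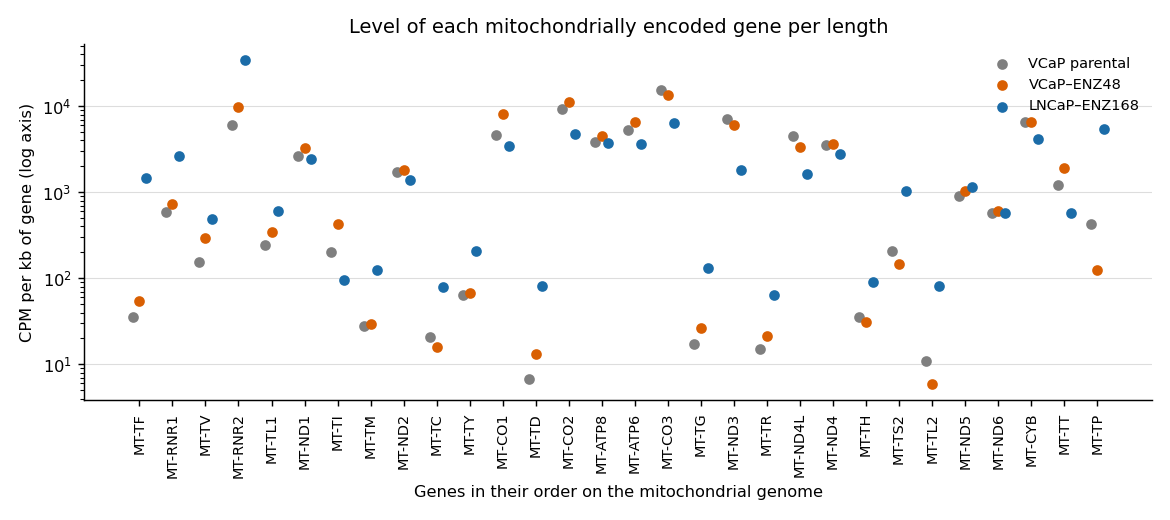
Points give the level of each of the 30 genes in CPM per kb of gene on a log axis, in their order on the mitochondrial genome, with grey for VCaP parental, orange for VCaP–ENZ48 and blue for LNCaP–ENZ168. MT-RNR2 stands at 34260 CPM per kb in LNCaP–ENZ168 and at 6019 and 9662 in the VCaP libraries, and the blue points lie below the others for MT-CO1, MT-CO2, MT-CO3, MT-ND3, MT-ND4L and MT-CYB.

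VCaP–ENZ48 was set against VCaP parental to show what differed after short exposure to ENZ. A gene was compared if its mean over both libraries was at least 10 CPM, and was counted as higher or lower past 1.5-fold. Of 21 members compared, 5 were past 1.5-fold higher (MT-CO1, MT-RNR2, MT-TV, MT-TI and MT-TT), or 23.8%, against 15.6% of all 7729 genes compared. Only MT-TP was past it lower, against 17.9% of all genes. The median log2 ratio of these 21 members was 0.22 and that of all genes was -0.07, with quartiles of -0.44 and 0.34. Among the 13 protein genes the median was 0.05, with 10 above 0 and 3 below (MT-CO3, MT-ND3 and MT-ND4L), and under TMM scaling only MT-CO1 and MT-ND1 stayed above 0. The other 9 members, all tRNA genes, had means under 10 CPM. TMM scaling moved the median of all genes to -0.34 and that of the members to -0.068, and under it MT-TV, at 0.59, and MT-TI, at 0.76, were the members past 1.5-fold higher.

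Between LNCaP–ENZ168 and VCaP–ENZ48 the cell line, its medium and the time in ENZ differed together, and their parts cannot be told apart. Depth and the number of barcodes ending in N (212 and 869 of 1000) differed as well. The comparison shares VCaP–ENZ48 with the previous one. Of 22 members compared, 7 were past 1.5-fold higher (both rRNAs and the tRNA genes MT-TF, MT-TV, MT-TL1, MT-TS2 and MT-TP), or 31.8%, against 53.1% of all 8854 genes compared. Another 9 were past it lower, or 40.9%, against 15% (1326) of all genes. These were MT-CO1, MT-CO2, MT-CO3, MT-CYB, MT-ATP6, MT-ND3 and MT-ND4L with the tRNA genes MT-TI and MT-TT. The median of the members was -0.38 and that of all genes 0.66, with quartiles of -0.04 and 1.29. No protein gene was past 1.5-fold higher, and 12 of 13 were below 0, with the exception of MT-ND5 at 0.16 (0.13 to 0.19), which TMM scaling took to -0.37. The lowest ratio among protein genes was that of MT-ND3, at -1.73 (-1.78 to -1.68), followed by MT-CO2 at -1.25 (-1.27 to -1.23) and MT-CO1 at -1.23 (-1.24 to -1.21). TMM scaling moved the median of all genes to 0.10 and that of the members to -0.92, so the protein genes lay below the median gene under both scalings.

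**Figure D3:**
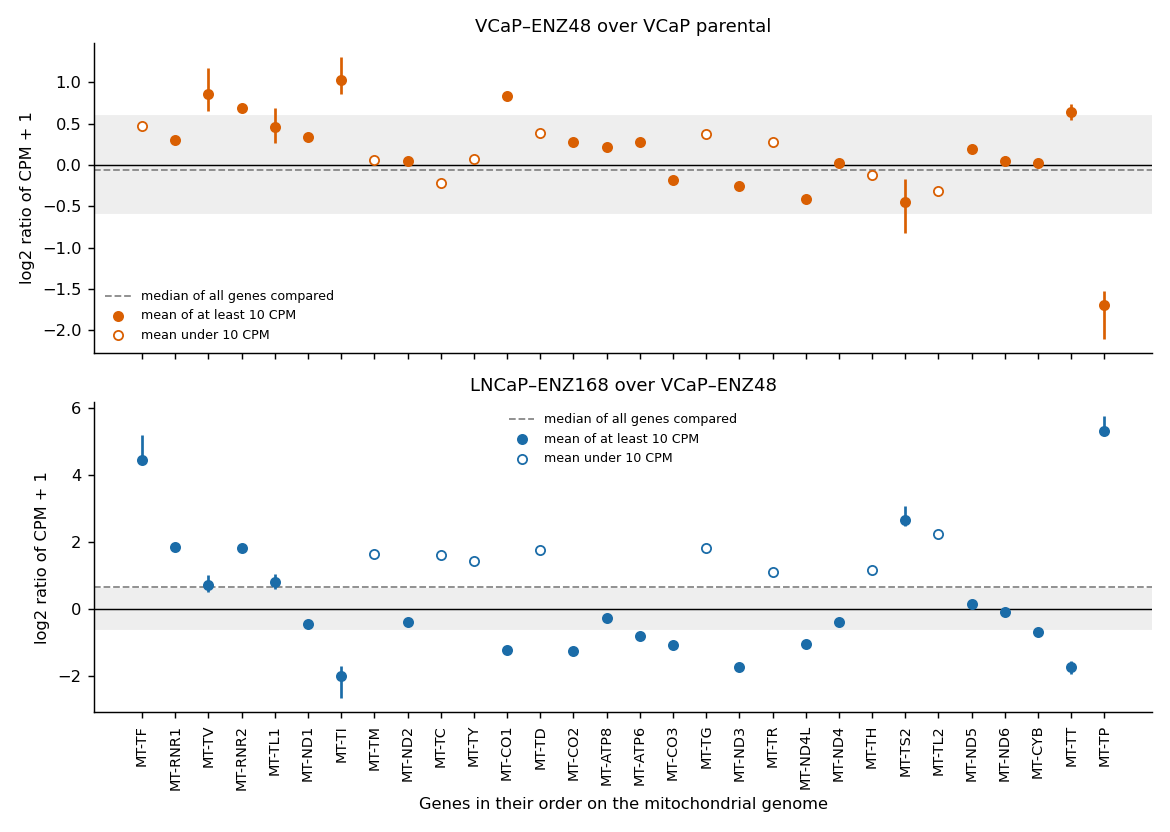
Points give the log2 ratio of CPM + 1 for each member in gene order, with bars for 95% counting intervals of members with a mean of at least 10 CPM, open points for the others, grey bands for ratios within 1.5-fold and a dashed line for the median of all genes compared. In the upper panel MT-CO1, at 0.83, lies above the band and MT-TP, at -1.69, below it, and in the lower panel the rRNAs lie near 1.83 and 1.86 while MT-ND3 lies at -1.73.

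The tRNA genes made up 0.292%, 0.317% and 0.807% of mitochondrial UMIs, and some of them differed more between the libraries than any message did. MT-TP had 572, 120 and 2363 UMIs, or 29.3, 8.39 and 374 CPM. MT-TT, 2 bases away on the other strand, had 1583, 1812 and 239 UMIs, or 81.1, 127 and 37.9 CPM. MT-TT had more UMIs than MT-TP in both VCaP libraries and fewer in LNCaP–ENZ168, with 2.77 (2.51 to 3.05), 15.1 (12.5 to 18.3) and 0.101 (0.0882 to 0.116) MT-TT UMIs per MT-TP UMI. Ratios of MT-TP were -1.69 (-2.10 to -1.52) and 5.32 (5.21 to 5.76), the largest of any member in both comparisons, and stayed past 1.5-fold under every alternative.

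MT-TF, the phenylalanine tRNA at the start of the rRNA precursor and next to MT-RNR1, had 49, 55 and 660 UMIs. As a log2 ratio it was 4.44 higher in LNCaP–ENZ168 than in VCaP–ENZ48 (4.37 to 5.19). Per MT-RNR1 UMI it had 0.00447, 0.00554 and 0.0414 UMIs, so it was also higher relative to its neighbour. MT-TI, the isoleucine tRNA, had 274, 425 and 42 UMIs, and was higher in VCaP–ENZ48 than in either other library. MT-TS2, a serine tRNA, had 240, 125 and 380 UMIs, or 12.3, 8.74 and 60.2 CPM. MT-TL1, a leucine tRNA just behind MT-RNR2, had 361, 369 and 288 UMIs, or 18.5, 25.8 and 45.6 CPM. MT-TV, the valine tRNA between the rRNAs, had 209, 288 and 215 UMIs, or 10.7, 20.1 and 34.1 CPM.

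The 8 remaining tRNA genes (MT-TM, MT-TC, MT-TY, MT-TD, MT-TG, MT-TR, MT-TH and MT-TL2) had 6 to 87 UMIs a library, and means under 10 CPM in both comparisons. Mature tRNAs have no A tail, and which RNA over these genes was captured was not tested. The 4 members on the minus strand (MT-ND6, MT-TC, MT-TY and MT-TP) made up 0.546%, 0.440% and 0.774% of mitochondrial UMIs. How the counting used strand is not given in the sources used here.

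Cells of a library showed the same differences as the library sums. In cells with at least 200 mitochondrial UMIs, the part of MT-RNR2 in them had a median of 14.1% in 995 cells of VCaP parental, 18.7% in 879 cells of VCaP–ENZ48 and 58.7% in 918 cells of LNCaP–ENZ168. The middle 90% of cells ranged over 8.95 to 24.2%, 10.2 to 42.2% and 49.5 to 71.6%. The highest VCaP parental cell was at 54.4%, a value exceeded by 13 cells, or 1.48%, of VCaP–ENZ48 and by 703 cells, or 76.6%, of LNCaP–ENZ168. MT-CO1 had more UMIs than MT-CO3 in 15 cells of VCaP parental (1.51%), in 720 of VCaP–ENZ48 (81.9%) and in 540 of LNCaP–ENZ168 (58.8%). The shift of MT-CO1 against MT-CO3 between the VCaP libraries was therefore seen across most cells and was not carried by a small group of them. For MT-RNR2 the middle 90% of cells of these libraries overlapped, so the same cannot be said of it.

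**Figure D4:**
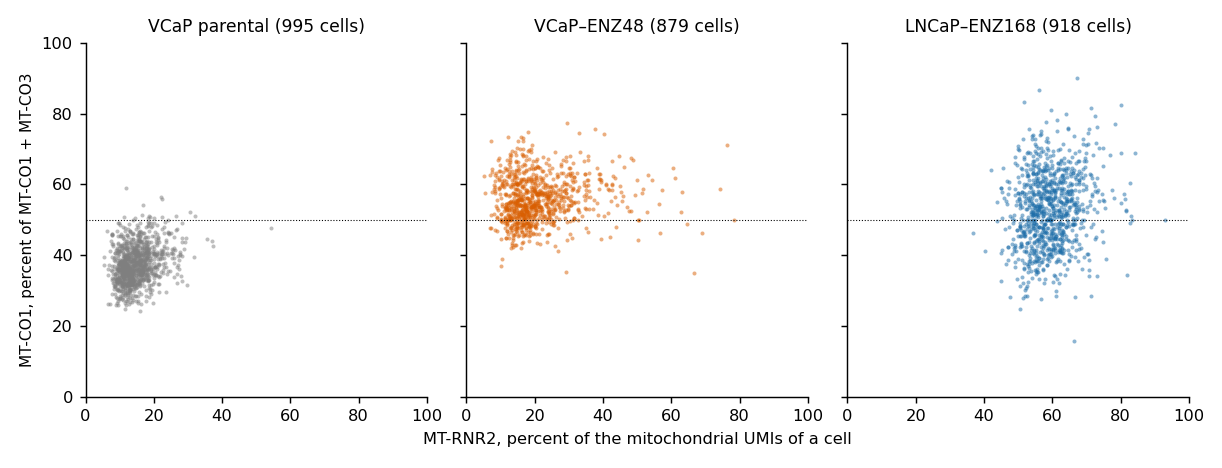
Each point is a cell with at least 200 mitochondrial UMIs, placed by the percent of its mitochondrial UMIs from MT-RNR2 and by MT-CO1 as a percent of its MT-CO1 and MT-CO3 UMIs together, with a dotted line at 50%. VCaP parental cells lie low and left, VCaP–ENZ48 cells lie mostly above the line (81.9% of them), and LNCaP–ENZ168 cells lie to the right, with a median of 58.7% on the horizontal axis.

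Depth differed between the libraries, so cells of each were split into 4 bins of equal number by UMIs. The third bin of VCaP–ENZ48 (median 14918 UMIs) and the second of VCaP parental (median 15957) were alike in depth, and had 1.27 and 0.588 MT-CO1 UMIs per MT-CO3 UMI. The shallowest bins of VCaP–ENZ48 and LNCaP–ENZ168 were also alike (medians of 3785 and 3707), and MT-RNR2 made up 27.8% and 62.0% of their mitochondrial UMIs. Within each library the share of all members was highest in the shallowest bin, at 6.67% against 6.02% in the deepest for VCaP parental, 10.3% against 6.97% for VCaP–ENZ48 and 10.1% against 8.48% for LNCaP–ENZ168. For MT-RNR2 the third bin of VCaP–ENZ48 and the second of VCaP parental were at 20.5% and 15.4%, a smaller gap than that within VCaP–ENZ48, whose bins ran from 18.3 to 27.8%. Spearman correlations across cells between the share of the members and UMIs per cell were -0.13, -0.19 and -0.12.

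**Figure D5:**
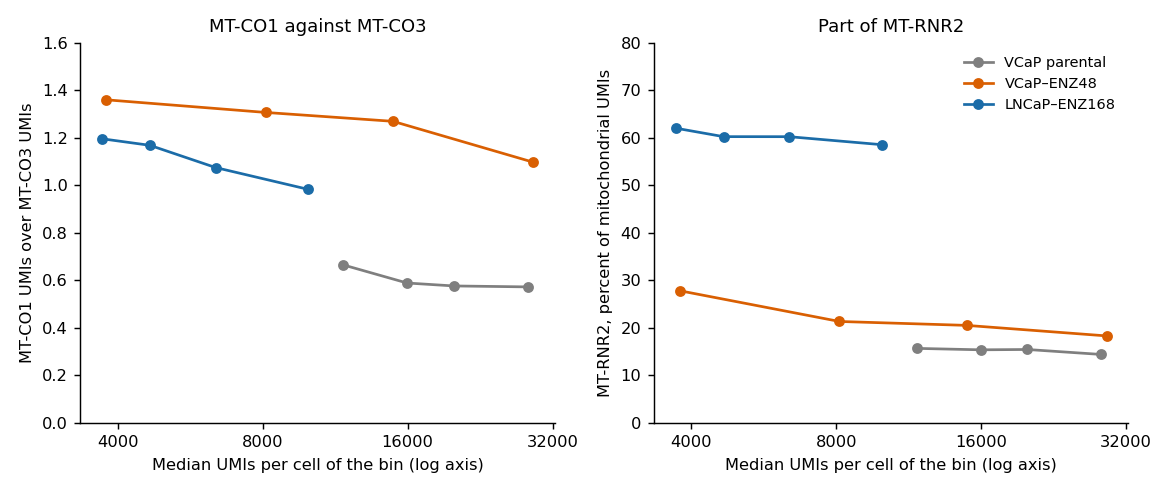
Points give 4 bins of the cells of each library by UMIs per cell, at the median depth of the bin on a log axis, with the UMIs of MT-CO1 per UMI of MT-CO3 on the left and the percent of mitochondrial UMIs from MT-RNR2 on the right. The 4 bins of VCaP–ENZ48 lie between 1.10 and 1.36 on the left and those of VCaP parental between 0.572 and 0.665, and on the right the bins of LNCaP–ENZ168 lie between 58.5 and 62.0%.

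The members were also set against a list of 97 cell cycle genes, whose median share over 4 bins of VCaP parental cells ran from 0.271 to 2.99% of UMIs and of VCaP–ENZ48 cells from 0.122 to 0.326%. In VCaP parental the share of the members was 6.64% in the bin of cells lowest in these genes and 5.78% in the highest, and MT-CO1 per MT-CO3 was 0.634 and 0.565. In VCaP–ENZ48 the corresponding values were 7.89% and 7.47%, with 1.20 and 1.21 MT-CO1 per MT-CO3. Among cells below the VCaP parental median of cell cycle genes, a choice made after seeing the data, MT-CO1 per MT-CO3 was 0.618 in VCaP parental and 1.19 in VCaP–ENZ48, and the share of the members 6.52% and 7.56%.

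The barcodes left out for more than 25% mitochondrial UMIs gave the same order of the libraries as the kept cells, in MT-RNR2 and in MT-CO1 per MT-CO3. There were 2 in VCaP parental, 52 in VCaP–ENZ48 and 54 in LNCaP–ENZ168, with 32.8%, 31.3% and 34.3% mitochondrial UMIs. MT-RNR2 made up 19.5%, 20.7% and 65.9% of these, against 15.1%, 20.1% and 59.8% in the kept cells. MT-CO1 per MT-CO3 was 0.684, 1.21 and 1.11, against 0.591, 1.19 and 1.07.

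The respiratory complexes also need subunits encoded in the nucleus. The 76 nuclear genes for subunits of the respiratory chain and ATP synthase, complex II included, summed to 39226, 25767 and 22605 CPM. All 76 could be compared. In VCaP–ENZ48 over VCaP parental 37 were past 1.5-fold lower and 0 higher, against 17.9% and 15.6% of all genes, with a median of -0.56 beside -0.07 for all genes. The mitochondrially encoded protein genes had a median of 0.05 on this scale, and under TMM scaling their sum was lower too, at -0.12. The UMIs of the 13 mitochondrially encoded subunits per UMI of these 76 were 1.33 (1.327 to 1.335), 2.29 (2.279 to 2.297) and 1.45 (1.44 to 1.46). The ratio was highest in VCaP–ENZ48 for every complex with members here, at 1.27, 1.92 and 1.37 for complex I, 1.27, 1.81 and 1.48 for complex III, 2.62, 5.02 and 3.00 for complex IV and 0.390, 0.752 and 0.512 for ATP synthase. It does not depend on scaling, and for all complexes together it ranged from 1.30 to 1.38, from 2.03 to 2.59 and from 1.23 to 1.57 over the alternatives in the cells kept, their weight and their depth. The alternative in depth thinned each cell to 2000 UMIs, which keeps its expected make-up and so cannot show an effect of depth. This ratio is not given by bins of depth.

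By the rule used for naming, the nuclear subunits of highest level were COX8A of complex IV (2665, 1755 and 487 CPM) and the ATP synthase subunits ATP5F1B (1385, 859 and 1218 CPM) and ATP5F1E (1825, 1010 and 479 CPM). NDUFA6 of complex I had the lowest ratio in VCaP, at -1.33 (-1.42 to -1.25), and SDHC of complex II the highest, at 0.56 (0.45 to 0.68). Against VCaP–ENZ48, LNCaP–ENZ168 had 15 past 1.5-fold higher, led by CYC1 of complex III at 1.71 (1.63 to 1.80), and 24 lower, led by COX8A at -1.85 (-1.90 to -1.80). Of all genes 53.1% were past it higher and 15% lower.

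Lists of genes that maintain, transcribe and process the mitochondrial genome each had a lower median ratio in VCaP–ENZ48 over VCaP parental than all genes. That of all genes was -0.07. Of 14 genes for maintaining it, 12 could be compared in VCaP, with 1 past 1.5-fold higher and 5 lower in VCaP–ENZ48, against 15.6% and 17.9% of all genes, and a median of -0.41. TFAM, which packages the genome and starts its transcription, was at 315, 173 and 181 CPM, with ratios of -0.86 (-0.94 to -0.80) and 0.07 (-0.04 to 0.17). SSBP1, which binds its single strands, was at 459, 263 and 296 CPM. DNA2, a nuclease and helicase of replication, had 382, 44 and 91 UMIs, and POLG2, the second subunit of the mitochondrial DNA polymerase, had 170, 208 and 160. Both are given as raw counts, from libraries that differed in depth. Against VCaP–ENZ48, 6 of 13 were past 1.5-fold higher in LNCaP–ENZ168 and 1 lower, near the shares of all genes (53.1% and 15%), from TK2, a thymidine kinase, at 2.98 (2.85 to 3.77) to DGUOK, which supplies deoxynucleotides, at -0.85 (-1.04 to -0.69).

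Of 9 genes for transcription, 8 could be compared, with 1 past 1.5-fold higher and 1 lower in VCaP–ENZ48 over VCaP parental, near the shares of all genes (15.6% and 17.9%). Their median was -0.25. MTERF4, which acts in assembly of the mitochondrial ribosome, was the higher one, at 83.5, 130.5 and 88.2 CPM, and TFAM the lower. TEFM, the elongation factor, was at 53.5, 44.3 and 36.4 CPM, and TFB1M, which methylates the 12S rRNA, at 19.5, 14.5 and 34.7 CPM. Against VCaP–ENZ48, 3 of 8 were past 1.5-fold higher in LNCaP–ENZ168 and 0 lower, against 53.1% and 15% of all genes.

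Of 24 genes for processing and decay of mitochondrial RNA, 23 had a row. In VCaP–ENZ48 over VCaP parental 0 of 20 were past 1.5-fold higher and 4 lower, against 15.6% and 17.9% of all genes, with a median of -0.27. SLIRP, which with LRPPRC stabilises mitochondrial messages, was at 649, 294 and 169 CPM, with ratios of -1.14 (-1.19 to -1.09) and -0.80 (-0.90 to -0.71), while LRPPRC itself was at 172, 137 and 112 CPM. REXO2, which degrades short RNA in mitochondria, was at 758, 1043 and 357 CPM. In LNCaP–ENZ168, against VCaP–ENZ48, 14 of 22 were past 1.5-fold higher and 2 lower, against 53.1% and 15% of all genes, with a median of 0.94 beside 0.66 for all genes. HSD17B10, a subunit of the enzyme that cuts the 5′ end of mitochondrial tRNAs, had the highest of these ratios, with levels of 67.7, 43.3 and 185 CPM.

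Nuclear chromosomes hold copies of mitochondrial genes, whose reads can be split with the members. In all, 193 such symbols had a row, and they summed to 924, 1933 and 466 CPM. Of 8 that could be compared in VCaP, 7 were past 1.5-fold higher in VCaP–ENZ48 and 0 lower, against 15.6% and 17.9% of all genes, with a median of 1.10. In LNCaP–ENZ168 over VCaP–ENZ48, 1 of 9 was higher and 7 lower, against 53.1% and 15% of all genes. MTATP6P1 (GRCh38 chr1:633696-634376), 681 bases long and 98.5% identical to MT-ATP6 with 10 bases that differ, held most of their UMIs, at 12753, 19284 and 1934. Per UMI of MT-ATP6 it had 0.179 (0.176 to 0.183), 0.306 (0.301 to 0.311) and 0.122 (0.117 to 0.128) UMIs, so that the copy and the gene did not move together.

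Most other copies named here showed the same order per UMI of their gene. MTND2P28 had 0.0454, 0.0672 and 0.0297 UMIs per MT-ND2 UMI, and MTND4P12 had 0.00638, 0.0163 and 0.00213 per MT-ND4 UMI. MTCO1P40 had 205, 669 and 40 UMIs, with the highest ratio in VCaP, at 2.05 (1.93 to 2.39). MTRNR2L1, a copy of MT-RNR2, had 47, 175 and 160 UMIs, and was lowest per MT-RNR2 UMI in VCaP parental. MTND3P19 had 1076, 877 and 0 UMIs, so that it was at least 129-fold lower in LNCaP–ENZ168 than in VCaP–ENZ48, taking 3 counts in the library as the floor. Whether reads of the members were assigned to these copies was not tested.

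RNA kept in the nucleus moved with the groups as well. MALAT1, a long noncoding RNA of nuclear speckles, was at 44632, 63406 and 28539 CPM, and NEAT1, the RNA that builds paraspeckles, at 1512, 2099 and 678 CPM. Both were higher in VCaP–ENZ48 than in VCaP parental, by 0.51 and 0.47 as log2 ratios, and lowest in LNCaP–ENZ168. Their part in the results on the members was not tested.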

How the data were processed

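The authors made the count files with the Drop-seq tools pipeline, STAR and Picard on GRCh38 with Gencode genes, expecting 1000 cells a library, and deposited UMI counts per gene and barcode. The use of strand in counting is not given in the sources used here. Many deposited barcodes ended in N (860, 869 and 212 of 1000). Doublets were not identified, and 7, 86 and 40 cells had over 3 times the median UMIs.

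Kept were cells with 300 genes and 500 UMIs or more and no more than 25% mitochondrial UMIs. Their counts were summed per library and divided by the library total (CPM). Depth was 6313283 to 19515202 UMIs. Log2 ratios used CPM + 1, and the genes compared had 10 CPM or more on average. With 1 library a group no test was made, and past 1.5-fold is a description. Intervals are exact (Poisson, Clopper-Pearson or conditional binomial). Those beside log2 ratios of genes were computed without the added 1 CPM, so at low counts a ratio can lie near the edge of its interval. Positions and sequences were read from a GRCh38 reference with Gencode genes. Scripts were tested on simulated data. Alternatives changed the cells kept, their weight, their depth, the scaling (TMM), the pseudocount and the minimum level, and the cells below the VCaP parental median of cell cycle genes were chosen after seeing the data. Named were all mitochondrial protein and rRNA genes, tRNA genes with at least 20 UMIs in any library, and of each nuclear list the 3 genes of highest mean level and the largest ratio each way. A marker gene of the epithelial list is not reported here. The members and lists were chosen with earlier results of these data known. Python 3.11.15 (numpy 2.4.6, pandas 2.3.3, scipy 1.17.1, matplotlib 3.10.9), R 4.3.3, edgeR 4.0.16 (TMM factors only) and Seurat 5.3.0 (cell cycle list only) were used.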

Additional observations from a re-analysis of the deposited data

How the results depend on the processing

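No paired analysis was possible because only 1 library was made for every group. Without replicates the spread between cultures is unknown, and depth limits the rarer tRNA genes. The cause of the shifts below was not tested.

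The share of all UMIs from the members (6.24%, 7.49% and 8.94% in VCaP parental, VCaP–ENZ48 and LNCaP–ENZ168) was 6.26%, 7.89% and 9.71% over all barcodes, and again without the limit on mitochondrial UMIs. It was 6.21%, 7.03% and 8.26% at a limit of 15%, and 6.10%, 6.69% and 7.29% at 10%. In barcodes ending in a base it was 6.28%, 7.17% and 8.86%, in cells below the VCaP parental median of cell cycle genes 6.52%, 7.56% and 9.16%, and with cells weighted equally 6.33%, 8.29% and 9.25%. Without cells over 3 times the median depth it was 7.71% in VCaP–ENZ48 and 9.18% in LNCaP–ENZ168.

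The make-up difference of 10.8 points between the VCaP libraries was 10.7 at 15%, 10.5 at 10%, 11.9 without the deep cells, 10.4 in barcodes ending in a base, 10.7 in cells low in cell cycle genes, 13.4 with equal weight, 12.9 in thinned cells and 9.80 without the rRNAs. That of 42.2 points between LNCaP–ENZ168 and VCaP–ENZ48 was 42.7 over all barcodes, 42.7 without the limit, 41.5 at 15%, 41.0 at 10%, 42.9 in barcodes ending in a base, 40.0 with equal weight, 40.7 in thinned cells and 13.2 without the rRNAs.

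The median log2 ratio of 0.22 in VCaP was 0.29 over all barcodes, 0.29 without the limit, 0.15 at 15%, 0.11 at 10%, 0.16 in cells low in cell cycle genes, 0.29 with equal weight, 0.32 in thinned cells, and turned to -0.068 under TMM scaling. The median of -0.38 for LNCaP–ENZ168 over VCaP–ENZ48 was -0.47 at 10%, -0.42 in thinned cells and -0.92 under TMM scaling, and turned to 0.45 at a minimum of 1 CPM, which admits the rare tRNA genes. Under TMM scaling 2 members in place of 5 were past 1.5-fold higher and 3 in place of 1 lower in VCaP, and 14 in place of 9 lower in LNCaP–ENZ168. At a minimum of 1 CPM 15 in place of 7 were higher there. The shares of all genes past 1.5-fold under these settings are not given here, so these counts are no result about the members. TMM scaling moved the median of all genes to -0.34 in VCaP and to 0.10 for LNCaP–ENZ168 over VCaP–ENZ48. Past 1.5-fold in VCaP, MT-RNR2 was lost at 15% (0.58), at 10% (0.50) and under TMM scaling (0.39), MT-CO1 under TMM scaling (0.54), MT-TT under TMM scaling (0.35) and in cells low in cell cycle genes (0.48), and MT-TV with a pseudocount of 10 (0.54). In LNCaP–ENZ168, MT-TV was lost under TMM scaling (0.22) and with that pseudocount (0.55), and MT-TL1 under TMM scaling (0.28), with equal weight (0.53) and in thinned cells (0.52).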
